A study of Mus musculus with 10 samples.

Results

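Double mutant (DM) haematopoietic stem and progenitor cells (HSPCs), which carry the Npm1c and Flt3-ITD alleles together, were compared with HSPCs that carry Flt3-ITD alone, by ATAC-seq. In this assay the Tn5 transposase cuts open chromatin and leaves sequencing adapters there, so that peaks of reads mark accessible DNA. The DM mice were Npm1flox-cA/+;Flt3ITD/+;Mx1-Cre+ and the Flt3-ITD mice were Flt3ITD/+, with 2 biological replicates of each. The cells of both genotypes were lineage-negative cells depleted by kit from C57BL/6 bone marrow. Npm1c (Npm1flox-cA/+;Mx1-Cre+) and wild-type (WT) HSPCs, also with 2 libraries each, served as libraries outside the comparison. The peaks of the 4 DM and Flt3-ITD libraries on chromosomes 1 to 19 and X were joined into 76152 merged regions, 1 shared bp being enough to join. A region was called gained when both DM libraries and neither Flt3-ITD library had a peak in it, and lost in the reverse case. By this rule 11291 regions were gained, 14.8% of all, and 3998 were lost, 5.25% of all.

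Npm1 encodes a nucleolar phosphoprotein, and the Npm1c mutation adds a nuclear export signal that moves the protein to the cytoplasm. Flt3 encodes a receptor tyrosine kinase of early blood progenitors, and an internal tandem duplication (ITD) keeps the kinase active without its ligand. Both mutations recur together in human acute myeloid leukaemia, in which progenitors stop maturing. The Flt3-ITD mice carry no Cre in the labels, so the Npm1c allele and Mx1-Cre, a recombinase under an interferon-responsive promoter, cannot be told apart here. The labels give neither the age of the mice nor the time after recombination, and do not say whether each library came from 1 animal. A lineage-negative fraction is a mixture, so fewer cells of a type and less open chromatin per cell cannot be told apart.

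The sequences printed here are start-site windows of genes that lost or gained their peak. The first 6 are windows in lost regions, at red cell and platelet genes, and the last 3 are windows in gained regions, at receptor genes of myeloid cells. Each runs 5′ to 3′ on the gene's strand from 250 bases before to 50 bases after the start site (RefSeq, GRCm38.p6). Capitals mark the GATA motif AGATAA in the lost windows and the PU.1 motif GAGGAAGT in the gained ones, on either strand. Gata1 is shown although its window has no match, because it encodes the factor that reads the GATA motif in red cell and megakaryocyte precursors. Ackr1, Fcgr4 and Tlr11 were chosen after their values were seen. The printed windows hold matches more often than their classes do. GATA was found in 27.2% of all lost windows and PU.1 in 8.07% of all gained ones.
Gata1 (lost, chrX:7967861-7968160, minus strand): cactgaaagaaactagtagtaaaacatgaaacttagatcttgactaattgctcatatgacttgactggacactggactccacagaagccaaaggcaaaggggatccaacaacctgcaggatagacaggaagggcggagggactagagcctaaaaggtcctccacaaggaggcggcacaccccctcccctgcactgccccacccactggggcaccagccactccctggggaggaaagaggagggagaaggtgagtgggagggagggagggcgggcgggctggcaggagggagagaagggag
Epb42 (lost, chr2:121036828-121037127, minus strand): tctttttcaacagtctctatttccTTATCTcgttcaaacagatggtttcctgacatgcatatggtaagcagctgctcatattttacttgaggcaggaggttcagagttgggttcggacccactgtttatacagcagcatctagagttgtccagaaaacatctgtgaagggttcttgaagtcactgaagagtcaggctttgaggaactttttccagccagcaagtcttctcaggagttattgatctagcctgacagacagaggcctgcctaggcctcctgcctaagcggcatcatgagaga
Hbb-bs (lost, chr7:103827879-103828178, minus strand): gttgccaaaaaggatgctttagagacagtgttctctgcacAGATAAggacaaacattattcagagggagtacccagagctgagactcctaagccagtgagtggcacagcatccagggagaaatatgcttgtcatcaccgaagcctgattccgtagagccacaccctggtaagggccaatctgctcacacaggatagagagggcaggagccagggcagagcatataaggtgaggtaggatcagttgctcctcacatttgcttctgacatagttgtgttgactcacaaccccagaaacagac
Rhd (lost, chr4:134864286-134864585, plus strand): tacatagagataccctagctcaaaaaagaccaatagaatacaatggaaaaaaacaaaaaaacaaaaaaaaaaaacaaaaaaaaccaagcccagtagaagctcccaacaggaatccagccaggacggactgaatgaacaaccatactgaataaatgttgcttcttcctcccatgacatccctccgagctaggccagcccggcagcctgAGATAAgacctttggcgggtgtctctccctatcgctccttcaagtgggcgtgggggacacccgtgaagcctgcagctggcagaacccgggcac
Gp5 (lost, chr16:30310732-30311031, minus strand): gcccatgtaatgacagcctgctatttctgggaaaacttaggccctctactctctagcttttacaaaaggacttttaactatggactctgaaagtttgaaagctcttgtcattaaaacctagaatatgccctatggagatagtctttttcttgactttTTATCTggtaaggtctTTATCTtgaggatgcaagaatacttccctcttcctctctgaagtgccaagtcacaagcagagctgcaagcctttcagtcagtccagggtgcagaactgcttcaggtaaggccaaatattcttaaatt
Ackr1 (lost, chr1:173333454-173333753, minus strand): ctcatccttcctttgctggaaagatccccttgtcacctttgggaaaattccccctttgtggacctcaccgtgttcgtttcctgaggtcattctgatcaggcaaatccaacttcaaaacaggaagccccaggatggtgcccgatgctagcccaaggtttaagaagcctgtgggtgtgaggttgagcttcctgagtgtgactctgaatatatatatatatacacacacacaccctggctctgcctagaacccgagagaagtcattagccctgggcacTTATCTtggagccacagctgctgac
Adgre4 (gained, chr17:55749734-55750033, plus strand): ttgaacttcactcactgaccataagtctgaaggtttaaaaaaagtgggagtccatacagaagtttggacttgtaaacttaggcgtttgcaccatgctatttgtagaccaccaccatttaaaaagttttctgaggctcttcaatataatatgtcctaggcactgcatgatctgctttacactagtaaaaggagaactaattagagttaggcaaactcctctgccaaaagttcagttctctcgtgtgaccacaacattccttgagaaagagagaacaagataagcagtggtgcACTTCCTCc
Fcgr4 (gained, chr1:171018676-171018975, plus strand): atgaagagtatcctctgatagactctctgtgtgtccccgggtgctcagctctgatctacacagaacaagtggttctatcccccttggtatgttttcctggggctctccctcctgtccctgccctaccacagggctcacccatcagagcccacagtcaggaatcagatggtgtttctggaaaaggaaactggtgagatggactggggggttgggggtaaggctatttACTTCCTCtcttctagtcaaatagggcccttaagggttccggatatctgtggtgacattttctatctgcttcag
Tlr11 (gained, chr14:50357664-50357963, plus strand): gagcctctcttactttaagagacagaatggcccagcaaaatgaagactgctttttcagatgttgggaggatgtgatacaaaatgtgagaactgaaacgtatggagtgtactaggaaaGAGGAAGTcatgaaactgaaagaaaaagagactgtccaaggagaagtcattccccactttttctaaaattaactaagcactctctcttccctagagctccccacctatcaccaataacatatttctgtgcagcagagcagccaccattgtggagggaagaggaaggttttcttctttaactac

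These libraries differed in more than genotype. The DM lists held 55624 and 63133 peaks and the Flt3-ITD lists 43825 and 51733. On chromosomes 1 to 19 and X, DM libraries averaged 59354 ± 5312 peaks and Flt3-ITD libraries 47748 ± 5592 (SD, n = 2 each; two-sided exact permutation test, p = 0.333, the smallest value this design can give). These peaks covered 30.0 and 33.9 Mb in DM and 24.2 and 29.8 Mb in Flt3-ITD. Read depth per library is unknown, and a longer list makes gained regions more likely wherever they lie. The main counts below are therefore also given with the 4 lists cut to 43794 peaks each, keeping the widest. The shared fraction of covered bases (Jaccard index) was 0.755 between the DM libraries and 0.730 between the Flt3-ITD libraries, against 0.548 to 0.618 across genotypes.

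Replicate 1 and replicate 2 also differed in a sex-linked pattern in both genotypes. DM replicate 1 and Flt3-ITD replicate 1 had peaks over the start sites of 3 of 4 single-copy Y genes (Ddx3y, Eif2s3y and Uty), 511, 653 and 578 bp wide in DM replicate 1 and 357, 613 and 355 bp wide in Flt3-ITD replicate 1. DM replicate 2, Flt3-ITD replicate 2 and the 4 Npm1c and WT libraries had none. The start site of Xist, the RNA that silences an X chromosome in females, showed the reverse, with peaks of 419 bp in DM replicate 2 and 381 bp in Flt3-ITD replicate 2 and none in either replicate 1. In Npm1c and WT the Xist peak measured 440 to 821 bp. The same-numbered libraries of the 2 genotypes thus shared this pattern, and a region called gained or lost met the rule within each same-numbered pair. The labels do not give the sex of the mice.

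The labelled cell type was checked against markers. All 7 progenitor marker genes (Kit, Cd34, Flt3, Gata2, Myb, Ptprc and Spi1) had peaks in all 4 libraries, in 52 and 69 of 82 regions in DM and in 52 and 57 in Flt3-ITD. The neutrophil markers Ly6g and Camp had no peak in any of the 4. The myeloid surface genes Itgam and Adgre1 had peaks in 14 and 23 of 23 regions in DM and in 7 and 9 in Flt3-ITD. Of 4 genes of non-blood cells, Col3a1 and Lepr had no peak, while Cdh5 and Col1a1 together had peaks in 8 and 13 of 15 regions in DM and in 5 and 6 in Flt3-ITD. The part of other cells in the results below was not tested.

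The labelled alleles were looked at next. The single merged region within Npm1 (chr11:33162081-33163600) had a peak of 1447 and 1456 bp in DM, against 1471 and 1520 bp in Flt3-ITD. Ranked by width within each library, this peak stood slightly higher in DM, by 0.879 percentile points on average. Flt3 had 16 merged regions, none of them gained or lost, and all 9 called in every library were wider in both DM libraries than in either Flt3-ITD library. Wider in DM was also the more frequent state elsewhere, at 57.6% of all 33860 regions called in the 4 libraries. At the Flt3 start site the peak measured 896 and 1886 bp in DM and 741 and 753 bp in Flt3-ITD. At Mx1, whose promoter drives the Cre, 2 regions were gained. The wider one (chr16:97463456-97463831) had peaks of 335 and 376 bp in DM and none in Flt3-ITD, and was also called in both Npm1c libraries (401 and 212 bp) and in neither WT library. The other (chr16:97466593-97466918) had peaks of 217 and 326 bp in DM and none in Flt3-ITD, and was also called in both Npm1c libraries and neither WT library. The genotypes that carry Mx1-Cre therefore shared these 2 peaks.

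Gained and lost regions differed in size and place. Gained regions had a median width of 349 bp and lost regions 442 bp, against 653 bp for the 33860 regions called in all 4 libraries. Within genes lay 52.2% of gained and 65.3% of lost regions, compared with 59.6% of all regions. Within 1 kb of a start site lay 5.78% of gained and 8.34% of lost regions, compared with 30.8% of the regions called in all 4 libraries (chromosome 18 has no windows in the table used and is left out of these shares). Both classes were thus largely away from start sites. With equal list lengths 5067 of 59496 regions (8.52%) were gained and 5574 (9.37%) were lost. Of the lost regions 91.9% were lost again with equal list lengths, whereas 36.2% of the gained regions were gained again. The cut took no peak from Flt3-ITD replicate 1, and more from either DM list than from Flt3-ITD replicate 2. Gained calls thus had more peaks to lose, so these shares do not compare the stability of the classes. The count of gained regions and its excess over lost ones moved with list length.

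The X chromosome stood apart among the chromosomes. On X, 20.8% of 1301 regions were gained and 2.23% were lost, whereas on chromosomes 1 to 19 together 14.7% were gained and 5.30% lost. Single chromosomes other than X ranged from 11.6% to 17.6% gained and from 4.26% to 6.39% lost. Of the X regions 958 and 1128 had a peak in DM and 613 and 781 in Flt3-ITD. Within replicate 1, 38.1% of the X regions called in either library were found in DM alone, compared with 29.5% on chromosomes 1 to 19. Within replicate 2 the shares were 38.3% on X and 30.9% on chromosomes 1 to 19. Both same-numbered pairs gave the higher share on X.

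Red cell genes lost regions more often than most of the lists. Gata1, the transcription factor that drives red cell and megakaryocyte maturation, had no start-site peak in DM replicate 1 or 2, against 385 and 1115 bp in Flt3-ITD. Its window is the one printed above on chromosome X. Ermap, an immunoglobulin-family protein of the red cell surface, had no start-site peak in DM and peaks of 536 and 1488 bp in Flt3-ITD. Epb42, which encodes a protein of the red cell membrane skeleton, had none in DM and 544 and 754 bp in Flt3-ITD. The groups did not overlap at any of these start sites, since a lost region has no peak in DM by definition.

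The same held for blood group and globin genes. Rhd, a subunit of the Rh complex, had no start-site peak in DM, against 548 and 597 bp in Flt3-ITD. Its partner Rhag had none in DM and 324 and 386 bp in Flt3-ITD. Kel, the Kell blood group metallopeptidase, had none in DM and 385 and 505 bp in Flt3-ITD. The adult beta globin gene Hbb-bs had none in DM and 265 and 355 bp in Flt3-ITD. These 7 genes were all the start-site losses among 21 red cell genes with a window, and no start site of the list was gained. Of all 26794 genes with a window 195 (0.728%) lost and 347 (1.3%) gained a start-site region. All 7 red cell start sites had peaks in the 4 Npm1c and WT libraries, between 449 and 2130 bp wide in Npm1c and between 438 and 1808 bp in WT.

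Over all regions nearest to red cell genes the loss was wider than the start sites. Of 200 such regions at 27 genes, 35 (17.5%) were lost and 14 (7%) were gained. With equal list lengths 45 of 163 (27.6%) were lost and 9 (5.52%) gained, against 9.37% and 8.52% of all regions. Within the same-numbered pairs, 28.7% of the list's regions were called in Flt3-ITD and not in DM for replicate 1 and 49.0% for replicate 2, against 9.61% and 15.5% of all regions. Leaving out Flt3-ITD replicate 1, which also raised the lost count of all regions, moved the list's lost count to 80 of 203 regions. Leaving out each of the other libraries gave 36 to 52 lost regions.

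Zfpm1, which encodes FOG1, the cofactor that binds GATA1, contributed the most lost regions of the list. It had peaks in 11 and 10 of 29 regions in DM and in 20 and 27 in Flt3-ITD. Of these, 9 were lost and 1 was gained, and 6 of the lost ones lay within 20 kb. The widest lost region of the run (chr8:122342834-122344502) had no peak in DM and peaks of 1569 and 962 bp in Flt3-ITD. Without Zfpm1 the list still lost 26 of 171 regions (15.2%).

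Red cell regions that kept a peak in every library were often narrower in DM. Widths were ranked within each library, to set aside differences in overall width between lists. A region was called narrower when both DM ranks lay below both Flt3-ITD ranks. Of 64 red cell regions called in all 4 libraries, 33 (51.6%) were narrower and 19 (29.7%) wider in DM, against 11.9% narrower and 57.6% wider of all 33860. Equal list lengths left 29 of 48 (60.4%) narrower, against 26.0% of all. One Zfpm1 region (chr8:122285805-122288154) measured 308 and 255 bp in DM, against 1513 and 2165 bp in Flt3-ITD. This region was among the 5 with the largest drop in width rank.

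**Figure D1:**
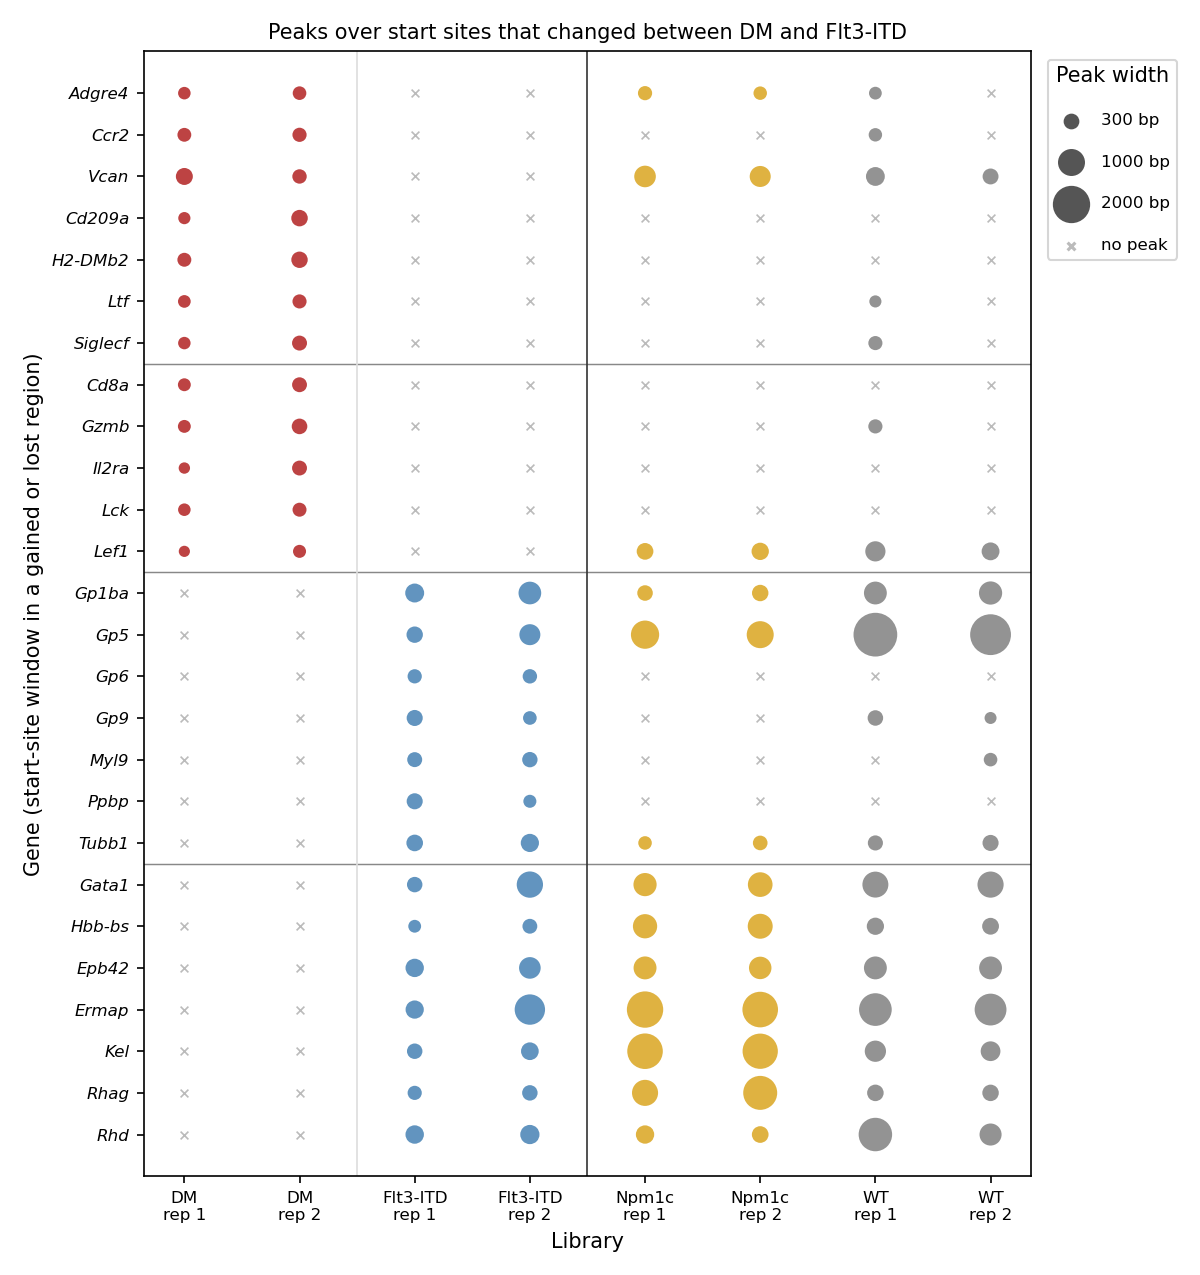
Peak width in base pairs (area of each circle) over the start-site window of gained and lost genes (rows) in each HSPC library (columns: DM, Flt3-ITD, Npm1c, WT), with a cross for no peak. The upper 2 blocks hold gained myeloid and lymphoid genes, and the lower 2 blocks hold 7 megakaryocyte and 7 red cell genes, whose peaks are in both Flt3-ITD libraries and neither DM library.

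Platelet genes followed red cell genes. Gp1ba, Gp5 and Gp9 encode 3 subunits of the platelet receptor for von Willebrand factor, and each lost its start-site peak. Gp1ba had no peak in DM and 578 and 830 bp in Flt3-ITD. Gp5 had none in DM and 433 and 711 bp in Flt3-ITD. Gp9 had none in DM and 416 and 301 bp in Flt3-ITD. The other platelet start sites lost were those of the collagen receptor Gp6, the myosin light chain Myl9, the chemokine Ppbp and the platelet tubulin Tubb1, with Flt3-ITD widths between 274 and 534 bp. Thus 7 of 17 megakaryocyte and platelet start sites were lost and none was gained. The count was 7 in the red cell and in the platelet list with equal list lengths also, and 4 in each with the 20000 widest peaks.

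The Npm1c and WT libraries divided these platelet start sites. Gp1ba, Gp5 and Tubb1 had peaks in all 4 of those libraries. Gp6 and Ppbp had peaks in none of them and were called in the Flt3-ITD libraries alone. Gp9 had peaks of 388 and 232 bp in WT and none in Npm1c. Over all regions of the list 32 of 155 (20.6%) were lost and 14 (9.03%) gained, and with equal list lengths 36 of 131 (27.5%) were lost and 9 (6.87%) gained. Rab27b, a small GTPase of platelet granule secretion, had the most, with 4 of 7 regions lost. Leaving out Flt3-ITD replicate 1, which also raised the lost count of all regions, moved the list's lost count to 52 of 153.

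Mast cell genes showed smaller losses, and stem cell genes lay near the shares of all regions at equal list lengths. The single regions of Cpa3 and Cma1, which encode mast cell proteases, were both lost. At Cpa3 no peak was listed in DM, against 245 and 200 bp in Flt3-ITD, and at Cma1 none in DM, against 232 and 441 bp in Flt3-ITD. The start sites of Hdc, which makes histamine, and Il1rl1, the receptor for interleukin 33, were also lost. Of the 74 mast cell and basophil regions 9 (12.2%) were lost and 8 (10.8%) gained. With equal list lengths 11 of 56 (19.6%) were lost and 2 (3.57%) gained, against 9.37% and 8.52% of all regions. Of 274 stem cell gene regions 23 (8.39%) were lost and 37 (13.5%) gained, the lost share standing above the 5.25% of all regions. Leaving out Flt3-ITD replicate 1 gave 52 of 269 (19.3%) lost, against 13.3% of all. Leaving out DM replicate 1 gave 64 of 268 (23.9%) gained, but raised the gained count of all regions too. Lmo2, a bridging protein of GATA complexes, had peaks in 7 and 11 of 24 regions in DM and in 12 and 19 in Flt3-ITD, with 6 regions lost and none gained. Without Lmo2 the stem cell list lost 17 of 250 regions (6.8%). Of 224 stem cell regions at equal list lengths 24 (10.7%) were lost and 19 (8.48%) gained, near the 9.37% and 8.52% of all regions.

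Among the genes with the most lost regions were Mroh2a, Chst11, Gse1, Zfpm1, Cmip, Nol4l, Chst1, Pde4d, Bmp1 and Ube2o, with 16 to 6 each. Igf1r, Lmo2, Mtss1, Nfia, Ntn4 and Rreb1 also had 6 lost regions, the same as Bmp1 and Ube2o. At Bmp1, a secreted metalloprotease, peaks were listed in 1 of 7 regions in either DM library and in all 7 in either Flt3-ITD library. At Ube2o, a ubiquitin ligase that removes ribosomal proteins during red cell maturation, peaks were listed in 1 of 8 regions in either DM library and in 7 and 8 in Flt3-ITD. At Chst1, a sulfotransferase, they were listed in 2 and 1 of 10 regions in DM and in 8 and 9 in Flt3-ITD. In the Npm1c and WT libraries Bmp1 had peaks in all 7 regions, Ube2o in 7 or 8 and Chst1 in 8 to 10.

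Mroh2a went a different way from these genes. It had peaks in 4 and 2 of 28 regions in DM and in 28 and 20 in Flt3-ITD, with 16 lost, of which 13 lay within 20 kb on chromosome 1. That 20 kb stretch held 19 regions, with none called in either DM library and 19 and 13 called in Flt3-ITD. In Npm1c 0 and 2 of them were called and in WT 0 and 0. The peaks of the stretch were thus a feature of the Flt3-ITD libraries rather than of the WT ones. The widest lost region of all also lay in Mroh2a (chr1:88254504-88258903), outside that stretch, and had no peak in DM, 3467 and 3125 bp in Flt3-ITD, and 7979 to 9443 bp across Npm1c and WT.

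**Figure D2:**
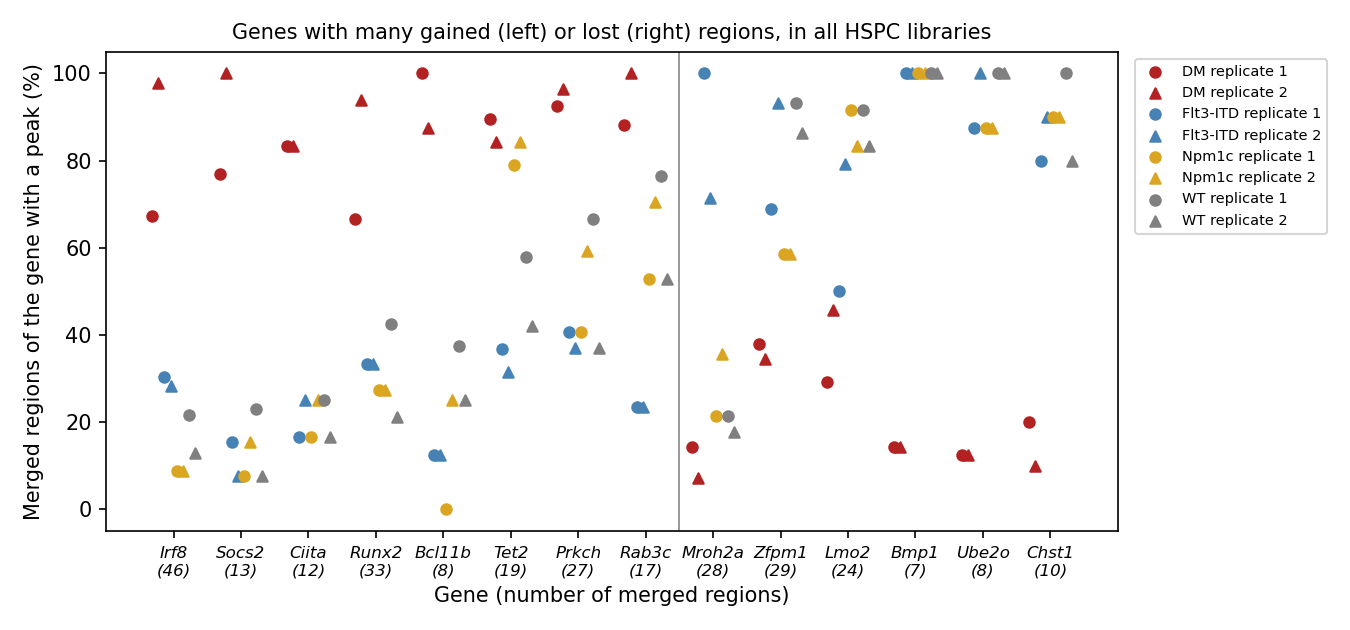
Share of each gene's merged regions that had a peak (vertical axis, %) in each of the 8 HSPC libraries, with the number of regions in brackets. Genes left of the line had many gained regions and lie high in DM, and genes right of it had many lost regions and lie low in DM. Mroh2a is high in Flt3-ITD alone, while Bmp1, Ube2o and Chst1 are high in every genotype other than DM.

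Monocyte and dendritic cell genes were among those with many gained regions. Irf8, a transcription factor needed for monocytes and dendritic cells, had more gained regions than any other gene. It had peaks in 31 and 45 of 46 regions in DM and in 14 and 13 in Flt3-ITD. Of these 17 were gained and none was lost, and 16 of the 17 had no peak in any Npm1c or WT library. A run of 11 gained regions within 20 kb lay along the gene body. The widest of them (chr8:120747808-120748998) had peaks of 957 and 1191 bp in DM and none in the 6 other HSPC libraries.

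The regulators of antigen presentation showed the same arrangement. Ciita, the coactivator that switches on MHC class II genes, had peaks in 10 and 10 of 12 regions in DM and in 2 and 3 in Flt3-ITD, with 6 gained. A region at its 5′ end (chr16:10479767-10480243) had peaks of 285 and 477 bp in DM and none in any other HSPC library. Cd74, the invariant chain that holds MHC class II molecules until they meet peptide, held the widest gained region of all. That region (chr18:60810518-60814824) had peaks of 1663 and 4307 bp in DM and none in Flt3-ITD, Npm1c or WT. H2-DMb2, which helps load peptides, gained a start-site peak of 313 and 434 bp in DM, with none in Flt3-ITD, Npm1c or WT.

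As lists, 46 of 197 dendritic cell regions (23.4%) were gained and 1 was lost, 49 of 205 monocyte and macrophage regions (23.9%) were gained and 6 were lost, and 18 of 89 MHC class II regions (20.2%) were gained and none was lost. All 3 shares stood above the 14.8% of all regions. With equal list lengths the gained share was 15.8% for the dendritic list, 13.3% for the monocyte list and 15.5% for the MHC class II list, against 8.52% of all regions. Without Irf8 the monocyte list still gained 32 of 159 regions (20.1%), and without Runx2 the dendritic list gained 37 of 164 (22.6%). Without Ciita the MHC class II list gained 12 of 77 (15.6%), close to the 14.8% of all regions. Leaving out DM replicate 1 moved the gained counts to 92 for the dendritic list, 92 for the monocyte list and 32 for the MHC class II list. Leaving out a library loosens the rule, so the gained count of all regions rose as well. Of the shared regions, 68 of 81 (84.0%) at dendritic, 58 of 75 (77.3%) at monocyte and 38 of 46 (82.6%) at MHC class II genes were wider in DM, against 57.6% of all.

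Single genes showed how far the gains reached along the myeloid lists. Ccr2, the chemokine receptor of inflammatory monocytes, gained a start-site peak of 309 and 325 bp in DM, absent from Flt3-ITD. Vcan, a proteoglycan of monocytes, gained one of 465 and 334 bp in DM. Cd209a, a lectin of dendritic cells, gained one of 240 and 439 bp in DM. Not all of these were absent elsewhere, since Vcan also had peaks in all 4 Npm1c and WT libraries and Ccr2 in WT replicate 1. With equal list lengths the monocyte list had 2 gained start sites, against 3 before the cut, and the dendritic cell list had none. Ly6c2, a surface protein of inflammatory monocytes, went the other way, with 3 of 4 regions lost and 1 gained. Batf3, a dendritic cell transcription factor, had peaks in 10 and 14 of 14 regions in DM and in 6 and 6 in Flt3-ITD, with 4 gained. Cebpa, a transcription factor of granulocyte and monocyte progenitors, had peaks in 10 and 10 of 10 regions in DM and in 5 and 6 in Flt3-ITD, with 4 gained.

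Granulocyte lists gave fewer regions. Of 98 neutrophil regions 19 (19.4%) were gained and 3 lost, against 14.8% gained of all regions. With equal list lengths 8 of 76 (10.5%) were gained, near the 8.52% of all regions. The start site of Ltf, which encodes lactoferrin of neutrophil granules, gained a peak of 260 and 321 bp in DM. No start site of the neutrophil list was gained with equal list lengths. Of 14 eosinophil regions 7 were gained and none was lost, 4 of the 7 at Siglecf, a lectin of eosinophils, and leaving that gene out left 3 of 6. Equal list lengths left 4 of 10 eosinophil regions gained, a number too small to rank against longer lists.

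T and NK lymphoid genes also stood above the background. Of 144 regions 39 (27.1%) were gained and 4 lost. Cut to equal lengths, the lists gave 13 of 100 (13%) gained and 6 lost, against 8.52% gained of all. Leaving out DM replicate 1 moved the gained count to 68 of 137, while the gained count of all regions rose as well. Bcl11b, a transcription factor of T cell commitment, had peaks in 8 and 7 of 8 regions in DM and in 1 and 1 in Flt3-ITD, with 6 gained. Without Bcl11b the list gained 33 of 136 regions (24.3%).

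The T and NK list also had 5 gained start sites among 21 genes with a window. Cd8a, a T cell coreceptor, had peaks of 268 and 357 bp in DM and none in Flt3-ITD. Gzmb, a protease of cytotoxic cells, had 268 and 392 bp in DM and none in Flt3-ITD. Lck, the kinase of T cell receptor signalling, had 254 and 315 bp in DM and none in Flt3-ITD. All 3 were narrow, under the DM median peak width of 401 and 402 bp. Il2ra and Lef1 were the other 2. With lists of equal length none of the list's start sites was gained, nor with peaks of at least 300 bp, and the 20000 widest peaks gave 2. Of the T cell marker genes Cd3e and Cd3d, peaks were listed in 1 and 3 of 3 regions in DM and in 1 and 1 in Flt3-ITD, and the part of T cells was not tested. Of 144 B lymphoid regions 21 (14.6%) were gained and 8 (5.56%) lost, near the shares of all regions. At equal list lengths, however, 5 of 102 (4.90%) were gained and 11 (10.8%) lost. Leaving out DM replicate 1 gave 58 of 142 (40.8%) gained, but raised the gained count of all regions too.

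**Figure D3:**
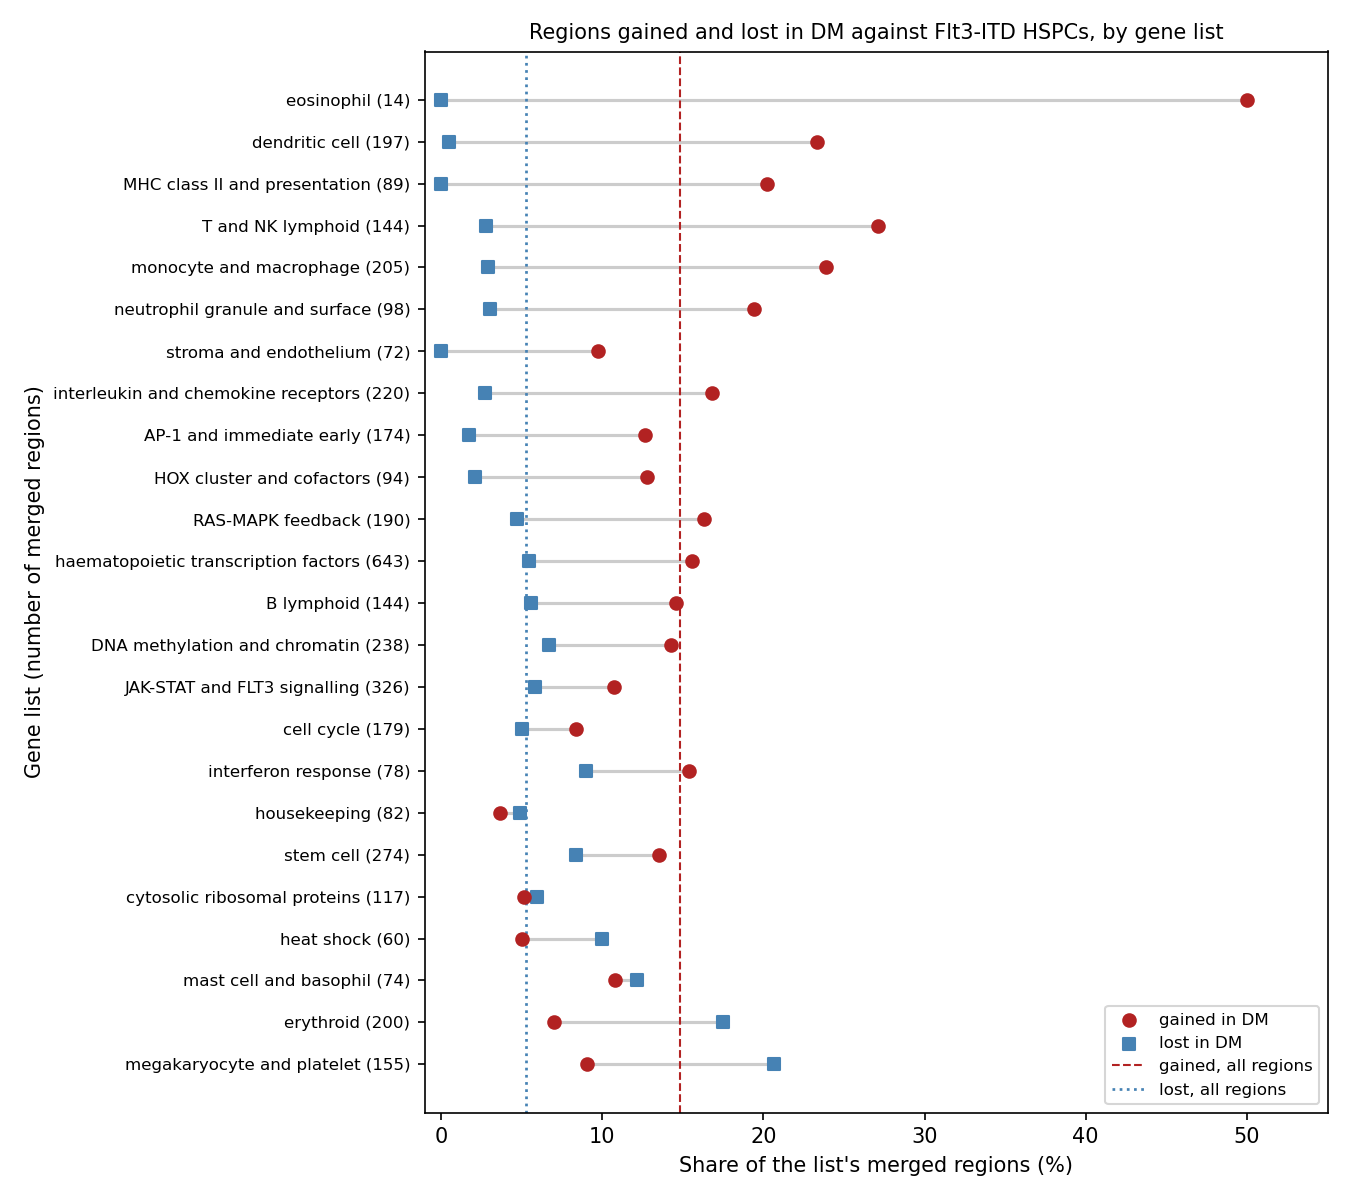
Share of each gene list's merged regions that was gained (circles) or lost (squares) in DM against Flt3-ITD (horizontal axis, %), with the number of regions in brackets, and the shares over all regions as vertical lines (14.8% gained, 5.25% lost). Red cell and megakaryocyte lists at the bottom have more lost than gained regions, and the eosinophil, dendritic, MHC class II and T and NK lists at the top the reverse.

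Before the lists were cut to equal length, genes of the pathways linked to the alleles lay closer to the background. Of 94 regions of HOX genes and their cofactors, which are known targets in NPM1-mutant leukaemia, 12 (12.8%) were gained and 2 lost, while with equal list lengths 13 of 72 (18.1%) were gained, above the 8.52% of all regions. Leaving out DM replicate 1 gave 27 gained HOX regions, leaving out DM replicate 2 gave 22 and leaving out Flt3-ITD replicate 2 gave 21. Each of these settings also raised the gained count of all regions. The direction of the HOX list against the background therefore changed with list length. At equal list lengths its gained share also stood above the 15.8% of the dendritic cell list. Hoxa10 had 2 gained regions, and both were called in both Npm1c libraries and neither WT library. Of 326 JAK-STAT and FLT3 signalling regions 35 (10.7%) were gained and 19 (5.83%) lost. Within that list Socs2, which feeds back on cytokine receptors that use STAT5, stood out, with peaks in 10 and 13 of 13 regions in DM and in 2 and 1 in Flt3-ITD. It had 8 gained regions, and without it the list gained 27 of 313 (8.63%). Of 7 of the 8 Socs2 regions no Npm1c or WT library had a peak.

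Tet2, a dioxygenase that starts removal of DNA methylation and is itself often mutated in myeloid disease, had peaks in 17 and 16 of 19 regions in DM and in 7 and 6 in Flt3-ITD. Of these 9 were gained and 1 was lost. The Npm1c libraries had peaks in 15 and 16 of the 19 regions, and 4 of the gained regions were called in both Npm1c and neither WT library. The widest of the gained regions (chr3:133548899-133549707) had peaks of 331 and 777 bp in DM, none in Flt3-ITD, 512 and 657 bp in Npm1c and none in WT. Over the whole list of DNA methylation and chromatin genes 34 of 238 regions (14.3%) were gained and 16 (6.72%) lost, near the shares of all regions. Housekeeping genes, with 3 of 82 regions (3.66%) gained and 4 (4.88%) lost, and ribosomal protein genes, with 6 of 117 (5.13%) gained and 7 (5.98%) lost, were gained less often than all regions and lost about as often. Equal list lengths gave 7 of 66 housekeeping regions (10.6%) and 10 of 104 ribosomal regions (9.62%) lost, against 9.37% of all.

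Among the genes with the most gained regions were Irf8, Nav2, Foxp1, Maml3, Zfhx3, Wwox, Prkch, Arhgap26, Cradd and Rab3c, with 17 to 11 each, and Etv6 also had 11. Several of them are long genes with many regions, so a count favours them. Prkch, a protein kinase C, had peaks in 25 and 26 of 27 regions in DM and in 11 and 10 in Flt3-ITD. Rab3c, a small GTPase of vesicle release, had peaks in 15 and 17 of 17 regions in DM and in 4 and 4 in Flt3-ITD, with 11 gained. Unlike Irf8, Rab3c had peaks in 9 and 12 regions in Npm1c and in 13 and 9 in WT. Foxp1, a forkhead transcription factor, had peaks in 41 and 56 of 65 regions in DM and in 20 and 25 in Flt3-ITD, with 14 gained.

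The Npm1c and WT libraries, which took no part in the choice of regions, separated the classes. Of the lost regions 83.2% and 85.1% had a peak in the Npm1c libraries and 93.7% and 92.2% in the WT libraries. All 4 of these libraries had a peak in 3254 lost regions (81.4%) and none had one in 216 (5.40%). Most lost regions were thus called in every genotype other than DM. Of the gained regions 26.1% and 32.9% had a peak in Npm1c and 48.2% and 15.7% in WT. None of the 4 libraries had a peak in 5308 gained regions (47.0%). The WT libraries differed from each other more than the Npm1c libraries did, and WT replicate 1 had the longest list, of 80916 peaks.

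**Figure D4:**
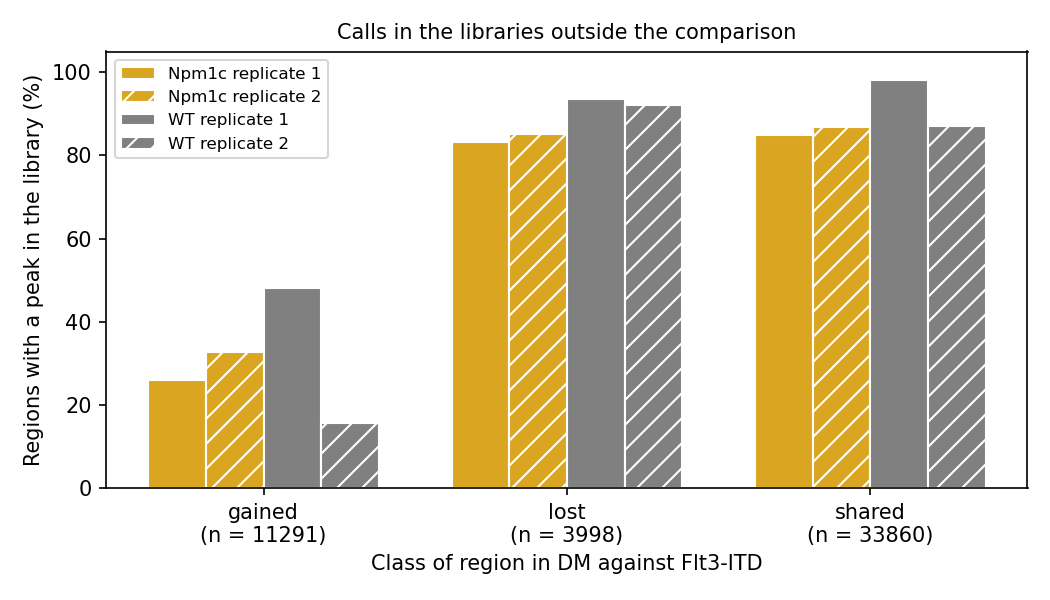
Share of gained, lost and shared regions that had a peak in each Npm1c and WT library (vertical axis, %), with the number of regions under each class. Lost regions were called about as often as shared ones in all 4 libraries, and gained regions less often, with the WT libraries at 48.2% and 15.7%.

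The Npm1c libraries, whose genotype also includes Mx1-Cre, could be compared with the WT libraries. Of all 76152 regions, 356 (0.467%) were called in both Npm1c libraries and neither WT library, and 164 of these were gained in DM while 5 were lost. Thus 46.1% of these 356 regions were gained, against 14.8% of all regions, and 1.40% were lost, against 5.25%. The 164 made up 1.45% of the gained regions. Places with a peak in Npm1c or WT but in no DM or Flt3-ITD library were not counted. In the other direction 3615 regions (4.75%) were called in both WT and neither Npm1c library. Of these 234 (6.47%) were gained and 233 (6.45%) lost in DM. The comparisons share no library, but all 8 lists differ in length.

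Start-site sequences differed between the classes. The GATA motif AGATAA was found on either strand in 53 of 195 lost windows (27.2%), in 32 of 347 gained windows (9.22%) and in 3067 of all 26794 windows (11.4%). The PU.1 motif GAGGAAGT was found in 1 lost window (0.513%), in 28 gained windows (8.07%) and in 3.30% of all windows. Shared windows, called in all 4 libraries, held GATA in 5.36% and PU.1 in 3.36%. At equal list lengths GATA was found in 62 of 324 lost windows (19.1%) and 15 of 182 gained windows (8.24%), and PU.1 in 5 lost (1.54%) and 16 gained windows (8.79%). The 20000 widest peaks per library gave GATA in 69 of 423 lost windows (16.3%) and PU.1 in 17 of them (4.02%), so that the PU.1 share of lost windows then stood above that of all windows. Dropping DM replicate 1 gave 552 gained windows, dropping Flt3-ITD replicate 2 gave 548, and dropping Flt3-ITD replicate 1 gave 363 lost windows. Leaving out each library in turn kept the GATA share of lost windows between 20.5% and 26.3% and the PU.1 share of gained windows between 6.57% and 7.42%.

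The printed windows show where such matches fall. Of the 7 lost red cell start sites Epb42, Hbb-bs, Kel and Rhd held AGATAA and Gata1, Ermap and Rhag did not. Of the 7 lost platelet start sites Gp5 held it in 2 places and Gp6 in 1. Ackr1, the Duffy chemokine receptor of red cells, had no start-site peak in DM and 428 and 955 bp in Flt3-ITD, and held 1 match. Among gained start sites, Adgre4 had peaks of 254 and 299 bp in DM and none in Flt3-ITD. Adgre4 was also called in both Npm1c libraries (325 and 293 bp) and in WT replicate 1 (263 bp). Fcgr4, an Fc receptor of monocytes and neutrophils, had peaks of 282 and 319 bp in DM and none in Flt3-ITD, Npm1c or WT. Tlr11, an innate receptor for microbial proteins, had 399 and 534 bp in DM and none in Flt3-ITD, and was also called in both Npm1c libraries (397 and 378 bp) and in WT replicate 1 (330 bp). A match is a run of letters and does not show that a factor was bound.

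Other motifs differed between gained and lost windows by fewer percentage points than GATA and PU.1. The interferon regulatory factor (IRF) motif, a pair of GAAA repeats, was found in 5.48% of gained and 1.54% of lost windows, against 3.51% of all. The STAT motif TTCNNNGAA was found in 11.5% of gained and 6.15% of lost windows, against 8.51% of all. The C/EBP motif TTGCNNAA stood at 11.2% of gained and 11.3% of lost windows, against 10.8% of all. The RUNX motif TGTGGT was found in 23.6% of gained and 21.0% of lost windows, against 16.8% of all. The GC box GGGCGG was found in 67.5% of shared windows, against 35.2% of gained, 40.0% of lost and 36.2% of all windows. For this motif the changed start sites thus lay near the share of all windows, and the shared ones above it.

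**Figure D5:**
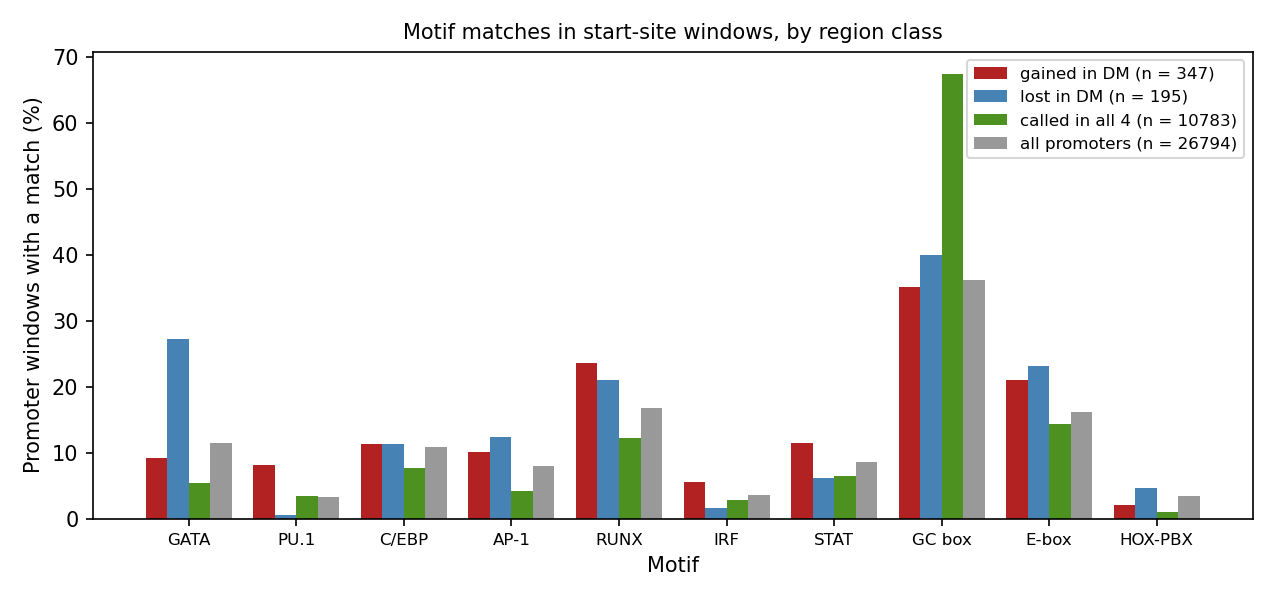
Share of start-site windows with at least 1 match on either strand (vertical axis, %) for 10 motifs (horizontal axis), in windows of gained, lost and shared regions and in all windows. The lost windows stand above the rest for GATA (27.2%), the gained windows for PU.1 (8.07%), and the shared windows for the GC box (67.5%).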

How the data were processed

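ATAC-seq peak lists of 8 HSPC libraries were used, 2 each of DM, Flt3-ITD, Npm1c and WT mice, grouped by title, per the labels. Reads were aligned with Bowtie2 and peaks called with MACS2 on mm10, per the submitters' processing notes. Their versions, thresholds and read filters are not stated there. The deposited files hold 3 columns, the chromosome, start and end of each peak, called per library, with no other measurement, so depth is unknown and a peak has no strength beyond its width. The 2 neutrophil samples were not analysed here, and 2 marker genes are not reported here.

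Peaks of the 4 DM and Flt3-ITD libraries on chromosomes 1 to 19 and X were merged where they shared 1 bp. An Npm1c or WT library was called where its peaks overlapped a region. Each region was given to the nearest gene within 100 kb, or the gene holding it (RefSeq, GRCm38.p6). Start-site windows run from 250 bases before to 50 after a start site and cover 26794 genes, none on chromosome 18. Widths were ranked within each library. A region is a description with no test of its own, and library totals were compared by exact permutation. The merging and calling were tested on simulated peaks.

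The members, the 24 gene lists (523 genes) and the motifs were chosen with earlier results of these data known. Genes were named as the 10 with most gained or lost regions, the 4 with most per list, the 5 with the widest regions of each kind, and list genes with a changed start site. Alternatives were equal list lengths, the 20000 widest peaks, peaks of at least 300 bp, 100 bp shared for merging, 50% cover for a call, merging over the 8 libraries, other gene distances and leaving out each library. Same-numbered pairs and lists without their leading gene were added after seeing the data. Python 3.11.15, pandas 2.3.3, numpy 2.4.6, scipy 1.17.1 and matplotlib 3.10.9 were used.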

Additional observations from a re-analysis of the deposited data

Results flagged for a closer look

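Calls in Npm1c against WT went in the opposite direction to DM against Flt3-ITD at 234 regions. These were gained in DM against Flt3-ITD but called in both WT and neither Npm1c library. The reverse was seen at 5 regions, lost in DM against Flt3-ITD but called in both Npm1c and neither WT library. The 234 were 6.47% of the regions called in both WT and neither Npm1c library, below the 14.8% gained of all regions, and the 5 were 0.125% of the lost regions, below the 0.467% of all regions with that pattern. The difference between the backgrounds was not tested, and WT replicate 1 had the longest list, of 80916 peaks. Anp32e, Cidea, Cntfr, Gfod1, Itpr3 and Lif had 2 of the 234 regions each. Among the 5 was 1 region of Ly6c2.

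Peaks on the Y chromosome, which the comparison did not use, were found over the start sites of 3 of 4 single-copy Y genes in DM replicate 1 and over 3 of 4 in Flt3-ITD replicate 1, against 0 in each WT library. The labels do not state the sex of the mice.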

How the results depend on the processing

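Gained regions numbered 5067 with equal list lengths and 2135 with the 20000 widest peaks per library, and 12665 to 21283 when each library was left out, the highest without DM replicate 1. Lost regions numbered 2301 with the 20000 widest peaks and 4789 to 10100 when each library was left out, the highest without Flt3-ITD replicate 1. The main setting gave 11291 gained and 3998 lost regions. Leaving out a library drops a condition from the rule, so counts of all regions rose along with those of the lists. Shared regions wider in DM numbered 9825 with equal list lengths and 21243 to 25321 with a library left out. Narrower ones numbered 7543 with equal list lengths and 5067 to 8505 with a library left out. Within same-numbered pairs, which was added after seeing the data, 18062 regions (replicate 1) and 22823 (replicate 2) were called in DM alone, 5850 and 11409 in Flt3-ITD alone, and 9568 and 11197 shared regions were narrower in DM. Among the 48 gene list counts, 21 stayed within 1.5 times their value with equal list lengths and 8 with the 20000 widest peaks. Dropping DM replicate 1 raised 26 of the 48 by more than 1.5 times and dropping Flt3-ITD replicate 1 raised 24, while dropping DM replicate 2 raised 5 and dropping Flt3-ITD replicate 2 raised 7. No paired analysis was possible because gained and lost calls come from no test that could take a replicate block, so the counts within same-numbered pairs are descriptions. With 2 libraries per genotype, unknown read depth and peak lists without heights, a region below the calling threshold in a library cannot be told from a closed one.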
